A study of Mus musculus with 4 samples.

Results

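Cytosolic ribosomal protein genes were examined in single-cell transcript counts of mouse thymocytes. The members were the genes whose symbols carry the Rps, Rpl or Rplp stem followed by a number, with an optional letter or paralogue ending, together with Rpsa. This rule found 83 members among 32285 genes, 32 of the small and 51 of the large ribosomal subunit, spread over 19 chromosomes with 14 on chromosome 7. The counts came from 4 libraries of C57BL/6J mice aged 3 weeks, wild type (WT) or PD-1 knockout by label, made with a 10x Genomics 5′ kit from the pooled thymi of 4 animals of a genotype. CD8-bearing cells had been depleted, and live CD4+ HSA+ CD73- cells were sorted by CD25: negative cells carry the label of CD4 single-positive thymocytes, positive cells that of regulatory T cells with their precursors. The stains listed in the same protocol name CD74 and not CD73. No transgene, Cre or treatment is given for any group, and the labels do not say which part of Pdcd1 was deleted. Each of the 4 combinations of genotype and gate is 1 library, so differences are given without replicates and no test between groups was run. Intervals are exact 95% intervals that cover counting error only.

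A ribosome is built from a small subunit, which reads the mRNA, and a large subunit, which joins amino acids. Each holds ribosomal RNA and many different proteins that cells normally make in matched amounts. The mRNAs of these proteins belong to the terminal oligopyrimidine (TOP) class, which starts with a C followed by an unbroken run of pyrimidines and whose translation is set by mTOR signalling. In thymocytes, cells that pass the pre-T cell receptor checkpoint grow and divide quickly. Mice without Rpl22, a protein of the large subunit, are known to lose αβ T cells at that step, and its paralogue Rpl22l1 is known to be held down by Rpl22. Rps27l, a paralogue of Rps27, is known as a target of p53.

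The annotated starts of members are shown here because the TOP tract is the feature that these mRNAs are known to share; of the lines below, 5 have it at the annotated start and 2 do not. Each line runs 5′ to 3′ on the transcribed strand, from 10 bases before to 20 bases from the RefSeq start (GRCm38.p6). Capitals mark an unbroken pyrimidine tract that begins with C at the start. Rps21 and Rps27l each have a further annotated start that is not printed and lacks the tract. In the counts that follow, a gene has the tract when any of its annotated starts has it.
Rps15a, chr7:118116128-118116157, minus strand: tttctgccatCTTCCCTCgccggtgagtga
Rps27, chr3:90213629-90213658, minus strand: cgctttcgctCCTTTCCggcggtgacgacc
Rpl15, chr14:18270967-18270996, minus strand: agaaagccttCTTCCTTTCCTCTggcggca
Rps21, chr2:180257369-180257398, plus strand: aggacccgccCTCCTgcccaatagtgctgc
Rps6, chr4:86857348-86857377, minus strand: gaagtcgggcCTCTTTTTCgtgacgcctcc
Rps27l, chr9:66946076-66946105, plus strand: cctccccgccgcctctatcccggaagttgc
Rpl22l1, chr3:28805498-28805527, plus strand: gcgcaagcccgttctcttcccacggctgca
Of the 63 members with an annotated start in the table, 13 (20.6%) began with C and at least 4 further pyrimidines, against 3.01% of all 27025 genes. The other 50 lacked it, Rpl22, the parent gene of Rpl22l1, among them. The letters CTTTCC lay on the transcribed strand within 50 bases of a start in 19 of the 63 members (30.2%), against 5.43% of genes. On either strand the shares were 33.3% and 10.3%. The match can overlap a tract printed above, and 20 members were not in the table. A few bases of error in an annotated start hide a tract, so these shares describe the annotation and not the mRNAs that were made.

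The libraries held 13580881 UMIs (unique molecular identifiers, each standing for 1 captured transcript molecule) in 2985 WT CD25- cells and 54064164 in 7649 WT CD25+ cells. The knockout-labelled libraries held 11159298 UMIs in 1716 CD25- cells and 68989300 in 9236 CD25+ cells. Pdcd1, the targeted gene, was at 18.3 and 16.0 CPM (UMIs of a gene scaled to a library total of 1000000) in the WT CD25- and CD25+ libraries and at 27.2 and 18.9 CPM in the knockout-labelled libraries. It was therefore not lower where a knockout is labelled, and the 5′ end of a transcript need not lie in the deleted part, so the libraries are called knockout-labelled throughout. Between 4 and 96 barcodes were shared by a pair of libraries, at most 1.34% of a library's cells. Ptcra, which encodes the α chain of the pre-T cell receptor and marks CD4- CD8- precursors, was detected without Cd4 in 4825 of the WT and 6644 of the knockout-labelled CD25+ cells, so most cells of that gate carried a precursor transcript, whereas it was at 1.03 CPM among WT CD25- cells.

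Members gave 19.96% of all UMIs in the WT CD25- library, 22.1% in the WT CD25+ library, 22.1% in the knockout-labelled CD25- library and 24.2% in the knockout-labelled CD25+ library. The share was higher in the CD25+ gate of each genotype and higher in the knockout-labelled library of each gate. Small-subunit members made up 46.3%, 46.2%, 46.0% and 45.7% of the members' UMIs in the same order, so the balance of the subunits varied far less than the share. The 10 most abundant members held 22.7% of the members' UMIs in WT CD25- cells and between 22.4% and 22.7% in the other libraries.

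The per-cell share fell into separate modes in the CD25- gate. In the WT CD25- library 1067 of 2985 cells (35.7%) took under 10% of their UMIs from members, and these cells together took 1.51%. The corresponding figures were 18.3% in the knockout-labelled CD25- library, 6.09% in WT CD25+ and 4.89% in knockout-labelled CD25+. In the WT CD25- library the cells under 10% had a median of 1581 UMIs against 5800 in the other cells, 6.31% against 1.97% mitochondrial UMIs, and 84008 against 25532 CPM of Gm42418, a gene model that overlaps ribosomal RNA repeats. Malat1, a nuclear non-coding RNA named here after its values were seen, was at 32495 against 7276 CPM. Their part in the library shares was not tested. Among cells at or above 10%, the members' share was 22.8% in WT CD25-, 22.4% in WT CD25+, 23.3% in knockout-labelled CD25- and 24.5% in knockout-labelled CD25+ cells, a description only because the same share chose the cells.

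**Figure D1:**
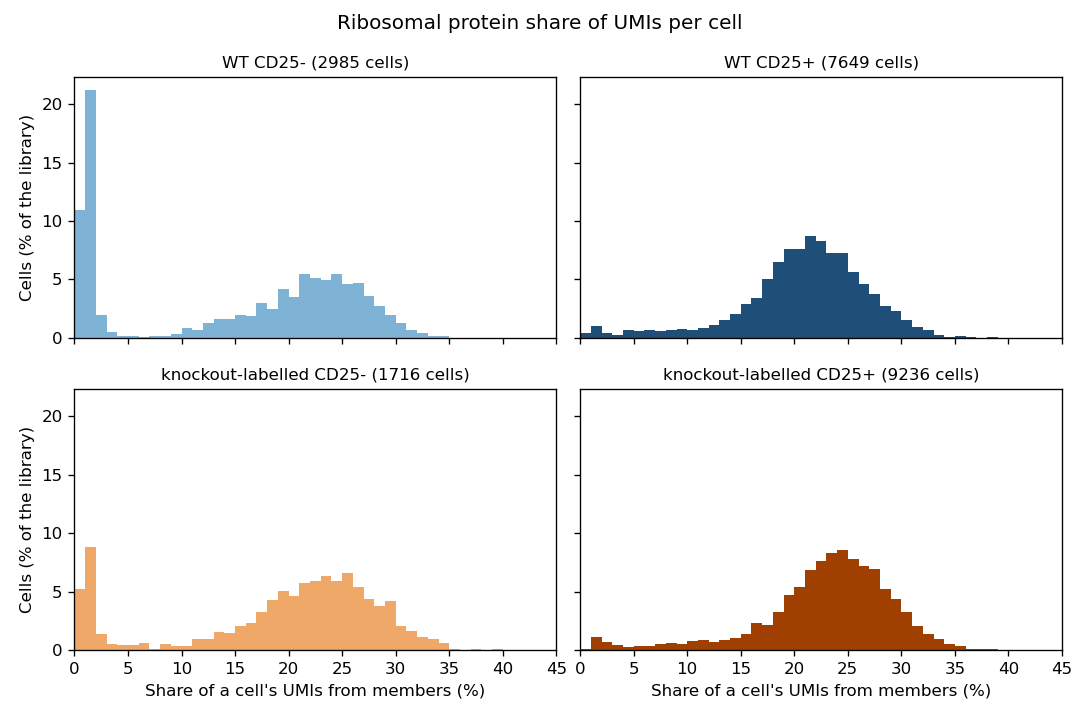
Histogram of the share of each cell's UMIs that came from the 83 members (x axis, in bins of 1 percentage point) against the percentage of cells of the library (y axis), for the 4 libraries. A separate peak near 1% holds many cells of the CD25- libraries, where 35.7% (WT) and 18.3% (knockout-labelled) of cells lie under 10%, and is small in the CD25+ libraries.

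Cell classes were defined by detected transcripts. Cells with at least 1 UMI of Cd4 and 1 of Trac, the T cell receptor α constant segment, stand for CD4-lineage thymocytes and are called Cd4 Trac cells. Cells with no Cd4 UMI and at least 1 of Ptcra carry a transcript of double-negative precursors and are called Ptcra cells. The labels describe a sort of CD4+ cells, which should leave such precursors out, and how these cells came to be in the CD25+ gate was not tested. Cells with at least 1 UMI of Foxp3, the transcription factor of regulatory T cells, are called Foxp3 cells. In WT CD25+ Ptcra cells all 8 double-negative markers were detected, with a summed level of 4876 CPM against 242 CPM in Cd4 Trac cells, and in the knockout-labelled library the sums were 4083 and 354 CPM. All 6 regulatory T cell markers were detected in CD25+ Foxp3 cells, with sums of 2547 CPM (WT) and 2002 CPM (knockout-labelled), but the double-negative markers there still summed to 1142 and 1571 CPM. In the CD25+ libraries 34 of 679 WT and 58 of 389 knockout-labelled Foxp3 cells were also Ptcra cells. The CD25- libraries had 2 (WT) and 0 Ptcra cells, so that class is described in the CD25+ gate only, and they had 51 and 59 Foxp3 cells.

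Among Cd4 Trac cells the share of members was lower in cells with Ccr9, a chemokine receptor of recently selected thymocytes, than in cells with S1pr1, the receptor by which mature thymocytes leave. In WT CD25- cells the share was 20.1% (20.1 to 20.2) in 335 Cd4 Trac cells with Ccr9 and no S1pr1 UMI and 24.0% (24.0 to 24.1) in 519 with S1pr1. In knockout-labelled CD25- cells it was 20.8% in 253 and 24.9% in 380 cells. The CD25+ libraries had the same order with 20.4% in 121 and 23.4% in 203 WT cells, and 22.7% in 85 and 24.6% in 91 knockout-labelled cells. Foxp3 cells stood at 24.3% (WT, 679 cells) and 25.4% (knockout-labelled, 389 cells) in the CD25+ gate, but at 21.1% and 23.0% in the CD25- gate, where 31.4% and 18.6% of them lay under 10%. Ptcra cells stood at 22.1% in WT (4825 cells) and 24.6% in the knockout-labelled library (6644 cells). All Cd4 Trac cells stood at 22.2% (WT CD25-), 22.1% (WT CD25+), 23.2% (knockout-labelled CD25-) and 23.5% (knockout-labelled CD25+). The spread between cells was wider than these differences: in WT CD25+ Ptcra cells the per-cell mean was 21.1% ± 5.32 (SD over cells), with a median depth of 6078 UMIs.

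**Figure D2:**
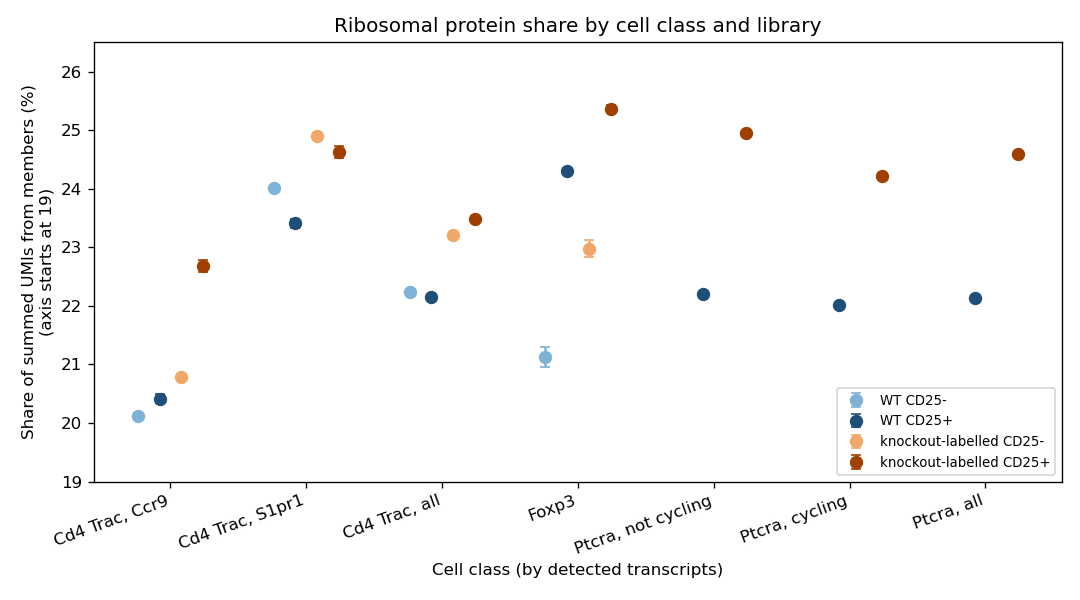
Share of summed UMIs from the 83 members (y axis, percent, starting at 19) in each cell class (x axis) of each library (colour), with exact 95% binomial intervals that are mostly smaller than the points. The share is higher in S1pr1 than in Ccr9 cells in all 4 libraries, and the knockout-labelled point lies above the WT point of the same gate in every class drawn.

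Of the 83 members, 80 reached 20 CPM in at least 1 of the classes compared, and the same 80 entered all 14 comparisons. The other 3 were paralogues at or near 0 CPM, Rpl39l, Rpl3l and Rpl10l. Levels are UMIs per gene and are not scaled by length, since the 5′ kit counts 1 end of each transcript, but reads of pseudogenes may be lost or added, so the order of members is uncertain. In WT CD25- Cd4 Trac cells abundant members were Rps24 at 6480 CPM, Rps20 at 5647 and Rplp0, the base of the ribosomal stalk, at 4948 CPM; Rps20 is named here after its values were seen. Rpl7l1, a paralogue of Rpl7, was at 64.5 CPM and Rps27l at 134 CPM, and were the lowest of the 80. Over the 8 combinations of library and class with at least 200 cells, the highest level of a member was 1.30 times its lowest in the median. The ratio reached 1.5 in 17 of the 80 and 2 in 3 members. Those 3 were Rps27l (2.75-fold), Rps29, a zinc-binding protein of the small subunit (2.29-fold), and Rps21 (2.24-fold). This ratio was not computed over all genes, so the counts of members cannot be set against a background. Rpl10 was the steadiest, between 2339 and 2460 CPM, a range of 1.05-fold.

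The first comparison set Ptcra cells against Cd4 Trac cells of the CD25+ gate, that is, precursors against CD4-lineage cells sorted and sequenced together. The total share differed by -0.017 percentage points in WT Ptcra cells (22.1% in each class, interval -0.0604 to 0.0264) and 1.10 points higher in knockout-labelled ones (24.6% against 23.5%). The WT difference ranged from -1.02 points with cells weighted equally to 0.388 with classes at 2 UMIs, and the knockout-labelled one from 0.463 to 1.48 points, so the WT difference has no stable direction. Of the 80 members at 20 CPM or more, only Rps14 differed by at least 1.5-fold, in either library. Of all genes, 36.2% of the 7489 compared in WT and 33.4% of the 7441 in the knockout-labelled library did. The knockout-labelled count was 0 with doublets kept or with all deposited barcodes and 3 with thinning, and the WT count was 5 with cells weighted equally and 4 with thinning. Shares of all genes were not computed in these settings. At 1.2-fold, 6 members were higher and 8 lower in WT, against 37.5% and 26.3% of all genes, and 9 were higher and 8 lower in the knockout-labelled library, against 34.1% and 27.6%. The members' shares lay below the background in each case. Their median log2 ratio was -0.03 in WT and 0.05 in the knockout-labelled one, against 0.09 and 0.05 over all genes.

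Single members differed in the same direction in both libraries. Rps14, a protein of the small subunit's platform, was at 4463 CPM in WT Ptcra cells against 2710 in Cd4 Trac cells, a log2 ratio of 0.72 (0.69 to 0.75). In the knockout-labelled library it was at 4287 against 2739 CPM, a log2 ratio of 0.65 (0.61 to 0.68). In the CD25- Cd4 Trac cells it was at 2648 (WT) and 2494 CPM, so precursors stood above all 4 groups of Cd4 Trac cells. Rps19, the protein most often mutated in Diamond-Blackfan anaemia, was at 3867 against 3109 CPM in WT and 4047 against 3188 CPM in the knockout-labelled library. Rpl11, which with Rpl5 can bind Mdm2 and so stabilise p53, was higher in Ptcra cells with log2 ratios of 0.29 and 0.38, whereas Rpl5 had log2 ratios of -0.19 and -0.25. Rpl32 was the remaining member at least 1.2-fold higher in both libraries, with log2 ratios of 0.30 and 0.40. These 4 members compare with 28.9% of all genes.

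Members lower in Ptcra cells in both libraries by at least 1.2-fold were Rpl22, Rpl34, Rpl41, Rplp1, Rps21 and Rps29, 6 of 80, against 21% of all genes. Rpl22 was at 1125 CPM in WT Ptcra cells against 1656 in Cd4 Trac cells, a log2 ratio of -0.56 (-0.60 to -0.52). In the knockout-labelled library it was at 1293 against 1701 CPM, a log2 ratio of -0.40 (-0.44 to -0.35). Rps21 was at 959.9 against 1355 CPM in WT and 1302 against 1696 CPM in the knockout-labelled library. Rps29 had log2 ratios of -0.54 and -0.31, and Rpl41 -0.39 and -0.57. Rpl41 was the shortest member by its longest annotated coding sequence, of 138 bases. Of the acidic stalk proteins, Rplp1 was lower (log2 ratios -0.43 and -0.30), Rplp2 differed little (-0.08 and -0.06) and Rplp0 was slightly higher (0.11 and 0.14). Rpsa, also known as a laminin receptor, had log2 ratios of -0.24 and -0.21, and Rps6, the member that S6 kinases phosphorylate, 0.16 and 0.16. Across the 80 members the log2 ratios of the WT and the knockout-labelled library correlated with r = 0.92, a description over genes that share libraries and depth.

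Foxp3 cells of the CD25+ gate were compared with the Cd4 Trac cells that had no Foxp3 UMI, called the other Cd4 Trac cells. Foxp3 cells needed no Cd4 or Trac UMI, and 135 of 679 WT and 60 of 389 knockout-labelled ones were also Cd4 Trac cells. Median depths were 4146 (Foxp3) and 6416 UMIs (other Cd4 Trac) in WT and 4288 and 6942 UMIs in the knockout-labelled library. The members' share was 2.80 percentage points higher in WT (24.3% against 21.5%) and 2.66 points higher in the knockout-labelled library (25.4% against 22.7%). With cells weighted equally the differences were 1.83 and 1.76 points, and thinning gave 1.68 points in the knockout-labelled library. The median log2 ratio of the members was 0.17 and 0.14, against -0.04 and -0.06 over all genes. At 1.5-fold 1 member differed in WT and none in the knockout-labelled library, against 20.4% and 23.9% of genes. At 1.2-fold 21 members (26.2%) were higher and 2 lower in WT, against 24.1% and 30.5% of all genes, and 20 were higher and 4 lower in the knockout-labelled library, against 26.1% and 33% of genes. The higher shares are thus near the background, and the lower shares are well under it. Precursor transcripts in Foxp3 cells move with this comparison: Ptcra itself was at 57.02 (WT) and 156 CPM (knockout-labelled) there, and its part was not tested.

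Rps15a led the members in Foxp3 cells. It was at 7110 CPM in WT Foxp3 cells against 4536 in the other Cd4 Trac cells, a log2 ratio of 0.65 (0.62 to 0.68). In the knockout-labelled library it was at 6770 against 4560 CPM, a log2 ratio of 0.57 (0.53 to 0.61). Its level in Ptcra cells was 4494 and 5087 CPM, so Foxp3 cells held the highest level of any class in the CD25+ gate of each genotype. Rps14 had log2 ratios of 0.40 and 0.44, Rpl37 0.44 and 0.38, and Rps27 0.36 and 0.45. In all, 17 of 80 members were at least 1.2-fold higher in both libraries, against 16.4% of all genes, and Rpl41 and Rpl7l1 were at least 1.2-fold lower in both, against 21.6%. Rpl41 was at 726 against 942 CPM in WT and 884 against 1212 CPM in the knockout-labelled library. Rpl7l1 was at 58.5 against 83.7 CPM (195 and 267 UMIs) in WT and 52.8 against 76.6 CPM (114 and 155 UMIs) in the knockout-labelled library, a direction that turned in the latter when cells were thinned to 1500 UMIs. Rpsa (log2 ratios -0.26 and -0.21) and Rps2 (-0.24 and -0.24) were also lower. Across the 80 members r was 0.96 between the libraries.

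Within the CD25- gate, Cd4 Trac cells with S1pr1 were set against those with Ccr9 and no S1pr1, a later against an earlier stage. The share of members was 3.89 percentage points higher in WT S1pr1 cells (24.0% against 20.1%) and 4.12 points higher in the knockout-labelled library (24.9% against 20.8%), the widest gap among the 14 comparisons. With cells thinned to 1500 UMIs the WT difference was 1.198 points and the knockout-labelled one 5.06 points. The median log2 ratio of members was 0.24 and 0.26, whereas that of all genes was -0.13 and -0.17. At 1.2-fold 35 members (43.8%) were higher in WT and 39 (48.8%) in the knockout-labelled one, against 15.9% and 16.6% of all genes. Only 2 and 3 members were lower, against 34.4% and 39.6% of genes. At 1.5-fold 1 member differed in each library, against 17.4% and 21.4% of genes. Thinning gave 5 members in WT (59 and 45 cells) and 21 in the knockout-labelled library (25 and 33 cells), and equal weighting gave 4 in the latter. Shares of all genes were not computed in these settings, so these counts cannot be read as a result about the members. Median depth was alike in the classes, 6113 and 6134 UMIs in WT and 7229.5 and 7498 in the knockout-labelled library, and 6.55% of WT S1pr1 and 6.87% of WT Ccr9 cells took under 10% of their UMIs from members. In the knockout-labelled library these shares were 2.11% of S1pr1 and 4.74% of Ccr9 cells, and their part in the gap was not tested.

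Rps27 and Rps24, both of the small subunit, had the highest ratios between these stages. Rps27 was at 2870 CPM in WT S1pr1 cells against 1990 in Ccr9 cells, a log2 ratio of 0.53 (0.48 to 0.58), and at 3191 against 2160 CPM in the knockout-labelled library, 0.56 (0.51 to 0.61). Rps24 was at 7391 against 5288 CPM and 7344 against 5047 CPM. Rps15a had log2 ratios of 0.47 and 0.45, Rpl35a 0.45 and 0.53, and Rpl34 0.43 and 0.54. In total 31 of 80 members were at least 1.2-fold higher in both libraries, against 11% of all genes. The member at least 1.2-fold lower in both was Rps27l, against 24.1% of genes, at 116 against 164 CPM in WT (log2 ratio -0.50, -0.71 to -0.29) and 100 against 171 CPM in the knockout-labelled library (-0.77, -0.996 to -0.543). Rpl41 was lower with log2 ratios of -0.26 and -0.38 and Rps12 with -0.16 and -0.33. When cells were thinned, the knockout-labelled value of Rpl41 turned to 0.0261, from 25 and 33 cells. Rpl7l1 was at 51.1 against 86.8 CPM in WT (-0.77, -1.07 to -0.46) and 54.9 against 65.3 CPM in the knockout-labelled library, where the interval of -0.25 (-0.59 to 0.09) includes no difference.

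**Figure D3:**
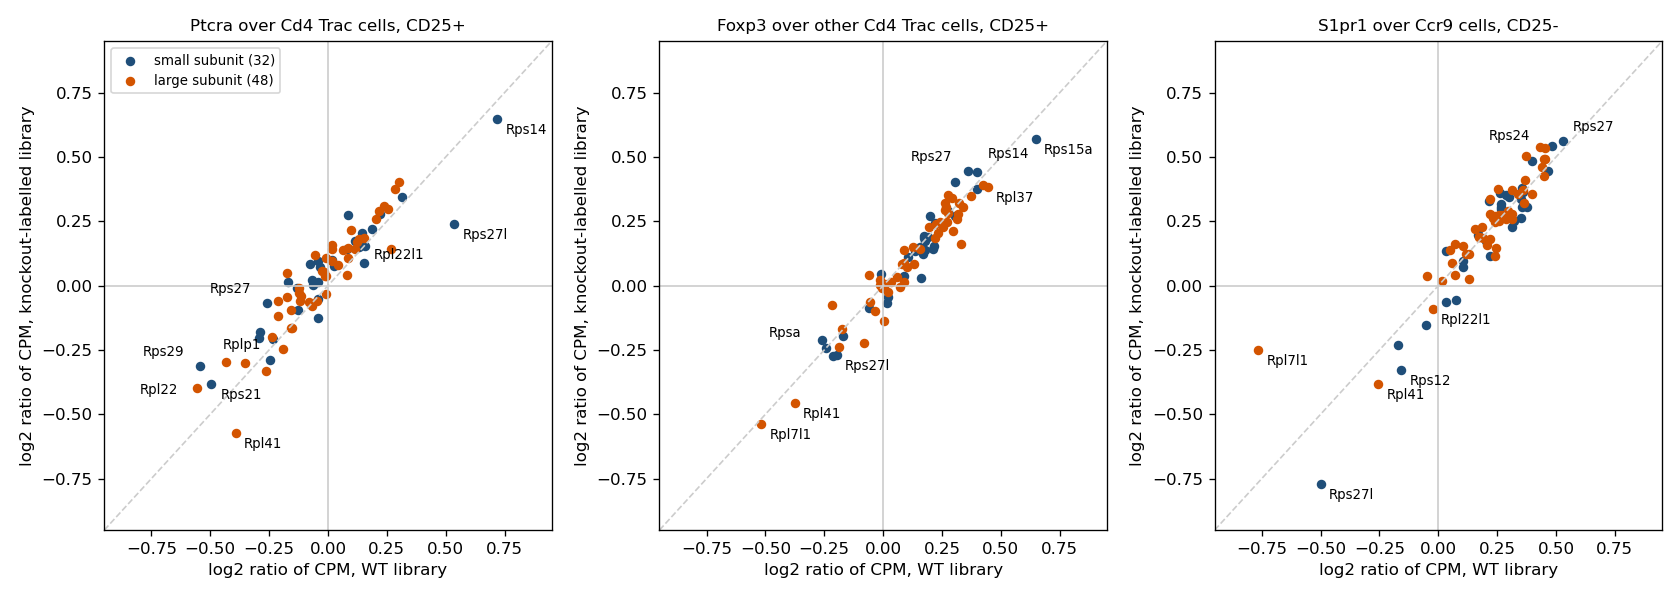
Log2 ratio of CPM of the 80 members above the low-value filter in WT (x axis) and knockout-labelled libraries (y axis) for 3 comparisons of cell classes, with small-subunit members in blue, large-subunit members in orange and a dashed line of equality. Points lie along the line; Rps14 stands apart among Ptcra cells (0.72 and 0.65), Rps15a among Foxp3 cells (0.65 and 0.57) and Rps27l at the low end for S1pr1 cells (-0.50 and -0.77).

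Dividing precursors took no larger share of their UMIs from members. Ptcra cells with a UMI of Mki67 or Top2a, genes of dividing cells, were set against the other Ptcra cells of the same CD25+ library. The share was 22.02% in 1171 cycling and 22.2% in 3654 other WT cells, and 24.2% in 2239 and 24.96% in 4405 knockout-labelled cells. Cycling cells were deeper, with median UMIs of 9122 against 5702 in WT and 9725 against 5317, and when each cell was given equal weight the differences turned to 0.655 and 0.217 percentage points, while thinning gave -0.808 and -1.11 points. None of the 80 members at 20 CPM or more differed by 1.5-fold in either library, against 24.7% and 20.8% of genes. Without that filter on low values 2 did in each library, and the share of all genes in that setting was not computed. At 1.2-fold 12 members were higher and 1 lower in WT, against 22.5% and 38.1% of genes, and 7 were higher and 1 lower in the knockout-labelled library, against 19.7% and 37.1%. The median log2 ratio was 0.00 and -0.03 over the members and -0.13 and -0.14 over all genes.

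Members higher in cycling cells in both libraries by at least 1.2-fold included Rpl4, Rpl14, Rpl22l1, Rpl41, Rps25 and Rps27l; there were 7 in all, against 18.1% of genes. Rpl41 was at 838 against 604 CPM in WT and 904 against 678 CPM in the knockout-labelled library. Rpl14 had log2 ratios of 0.41 and 0.34, and Rpl4, which lines the exit tunnel of the large subunit, 0.39 and 0.34. Rpl22l1 was at 901 against 707 CPM in WT and 994 against 806 CPM in the knockout-labelled library. Rps27 was the member at least 1.2-fold lower in both, against 32.4% of genes, at 1303 against 1647 CPM in WT and 1531 against 1889 CPM. Rps6 had log2 ratios of 0.32 and 0.25, Rps24 -0.23 and -0.23. Across members r was 0.97 between the libraries.

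The CD25 gate was compared within Cd4 Trac cells of each genotype. The members' share hardly differed, 22.1% (CD25+) against 22.2% (CD25-) in WT, a difference of -0.101 percentage points, and 23.5% against 23.2% in the knockout-labelled libraries, 0.279 points. These directions were not stable: the WT difference was 1.42 points with cells weighted equally and 3.53 with thinning, and the knockout-labelled one -0.0200 points with mitochondrial, Gm42418 and receptor segment UMIs left out. Gm42418 was at 25455 CPM in WT CD25- and 5531 CPM in WT CD25+ Cd4 Trac cells, and at 14892 and 4415 CPM in the knockout-labelled libraries. At 1.5-fold 1 member differed in WT and 2 in the knockout-labelled libraries, against 12.2% and 20.7% of genes. Rps27l was higher in both, at 247 against 134 CPM in WT (log2 ratio 0.88, 0.75 to 1.01) and 276 against 130 CPM in the knockout-labelled libraries (1.09, 0.94 to 1.24). Rps27, its paralogue, was lower, at 1813 against 2478 CPM in WT (-0.45, -0.49 to -0.41) and 1789 against 2741 CPM (-0.62, -0.66 to -0.57). With cells thinned to 1500 UMIs the Rps27 ratios became 0.0744 and 0.0804, from 114 and 234 WT and 55 and 124 knockout-labelled cells. The classes were called again in the thinned counts, so these are not the same sets of cells. Rps21 (-0.53 and -0.34), Rps28 (-0.39 and -0.36) and Rps29 (-0.38 and -0.50) were also lower in CD25+ cells, and Rps2 (0.36 and 0.57) and Rpl41 (0.30 and 0.43) were higher. The WT ratio of Rps29 became 0.0495 under thinning.

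The study's own question was how PD-1 knockout thymocytes differ from WT. The members' share was higher in the knockout-labelled library in all 4 classes compared. The difference was 0.964 percentage points in CD25- Cd4 Trac cells (23.2% against 22.2%), 1.34 points in CD25+ Cd4 Trac cells (23.5% against 22.1%), 2.46 points in Ptcra cells (24.6% against 22.1%) and 1.05 points in CD25+ Foxp3 cells (25.4% against 24.3%). The sizes depend on the weighting of cells: the first was 1.98 points with cells weighted equally and 2.09 with thinning, the second 0.886 with thinning, and the last 0.680 and 0.721 points. None of the 80 members at 20 CPM or more differed by 1.5-fold in any of the 4, against 3.3%, 6.32%, 4.04% and 9.61% of genes in the same order. Without that filter on low values 1 member did in each of the 4, and the share of all genes in that setting was not computed. The median log2 ratio of the members was 0.05, 0.08, 0.15 and 0.06, against -0.01, -0.02, -0.06 and -0.03 over all genes. With 1 library on each side, genotype and library cannot be told apart.

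Short members led the difference between the libraries. Rpl36 was at 2732 against 2191 CPM in CD25- Cd4 Trac cells, 2766 against 2090 CPM in CD25+ Cd4 Trac cells, 3059 against 2218 CPM in Ptcra cells and 3176 against 2484 CPM in Foxp3 cells of the knockout-labelled and WT libraries. Rps28 was at 1604 against 1262, 1247 against 960.3, 1383 against 1051 and 1355 against 1059 CPM in the same classes. Rpl38 had log2 ratios of 0.34, 0.32, 0.39 and 0.32, and Rpl39 of 0.33, 0.19, 0.41 and 0.23. Levels at the other end hardly differed: Rps14 had ratios of -0.09, 0.02, -0.06 and 0.06, and Rpl7 of -0.05, -0.08, -0.05 and -0.10. The 17 members with at most 350 coding bases had a median log2 ratio of 0.21 in CD25- Cd4 Trac cells, 0.19 in CD25+ Cd4 Trac cells, 0.34 in Ptcra cells and 0.14 in Foxp3 cells, against 0.04, 0.07, 0.14 and 0.05 for the 63 longer ones. Coding bases here are those of the longest annotated coding sequence of a gene. Rps27l, among the 17 short members, was lower in knockout-labelled Ptcra and CD25- Cd4 Trac cells and higher in CD25+ Cd4 Trac and Foxp3 cells. Over genes outside the members the medians of short genes were 0.03, 0.06, -0.00 and 0.07 and those of longer genes -0.02, -0.03, -0.07 and -0.04. This split was made after the named members had been seen, and the part of library preparation in it was not tested.

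Paralogue pairs that differ by stage included Rps27 with Rps27l and Rpl22 with Rpl22l1, and Rpl7l1 differed as given above. The coding sequences of Rps27 and Rps27l are 255 bases each and identical at 194 of them (76.1%), and the transcripts share no run longer than 11 bases, so reads of the pair can be told apart. The first 60 coding bases are shown for this reason, 5′ to 3′ from the ATG (GENCODE vM21 transcripts), with capitals where the paralogues differ, 18 positions in all.
Rps27: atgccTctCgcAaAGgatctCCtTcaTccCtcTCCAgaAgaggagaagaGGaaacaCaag
Rps27l: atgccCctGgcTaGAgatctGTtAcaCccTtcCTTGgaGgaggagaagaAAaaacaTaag
Rpl22 (387 coding bases) and Rpl22l1 (369) are identical at 70.2% of aligned positions with a longest shared run of 26 bases.

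Rps27 (ENSMUSG00000090733, minus strand of chromosome 3, 90212522 to 90213651, GRCm38) and Rps27l (ENSMUSG00000036781, plus strand of chromosome 9, 66946086 to 66949516) ran in opposite directions. In the CD25- gate Rps27l was at 164 (WT) and 171 CPM (knockout-labelled) in Ccr9 cells and at 116 and 100 CPM in S1pr1 cells, while Rps27 went from 1990 and 2160 to 2870 and 3191 CPM. In the CD25+ gate Rps27l was at 358 and 326 CPM in Ptcra cells, 247 and 276 CPM in Cd4 Trac cells and 225 and 236 CPM in Foxp3 cells. Of the named classes, cycling Ptcra cells held the most, 415 and 376 CPM, against 322 and 277 CPM in the other Ptcra cells. The log2 ratio of Ptcra over Cd4 Trac cells was 0.54 (0.44 to 0.63) in WT and 0.24 in the knockout-labelled one, and the WT cycling ratio of 0.37 became -0.0649 when cells were thinned. Of the named classes, Rps27 was lowest in cycling Ptcra cells, at 1303 and 1531 CPM.

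Rpl22 (ENSMUSG00000028936, plus strand of chromosome 4, 152325742 to 152334071) was lower in Ptcra than in Cd4 Trac cells, whereas Rpl22l1 (ENSMUSG00000039221, plus strand of chromosome 3, 28805436 to 28807424) was slightly higher. Rpl22l1 was at 782 against 718 CPM in WT (log2 ratio 0.12, 0.07 to 0.18) and at 900 against 801 CPM in the knockout-labelled library (0.17, 0.10 to 0.23). Rpl22 was also higher in S1pr1 than in Ccr9 cells, with log2 ratios of 0.23 and 0.26, while Rpl22l1 had -0.02 and -0.09. In cycling cells both were higher, Rpl22 with 0.23 and 0.12 and Rpl22l1 with 0.35 and 0.30.

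**Figure D4:**
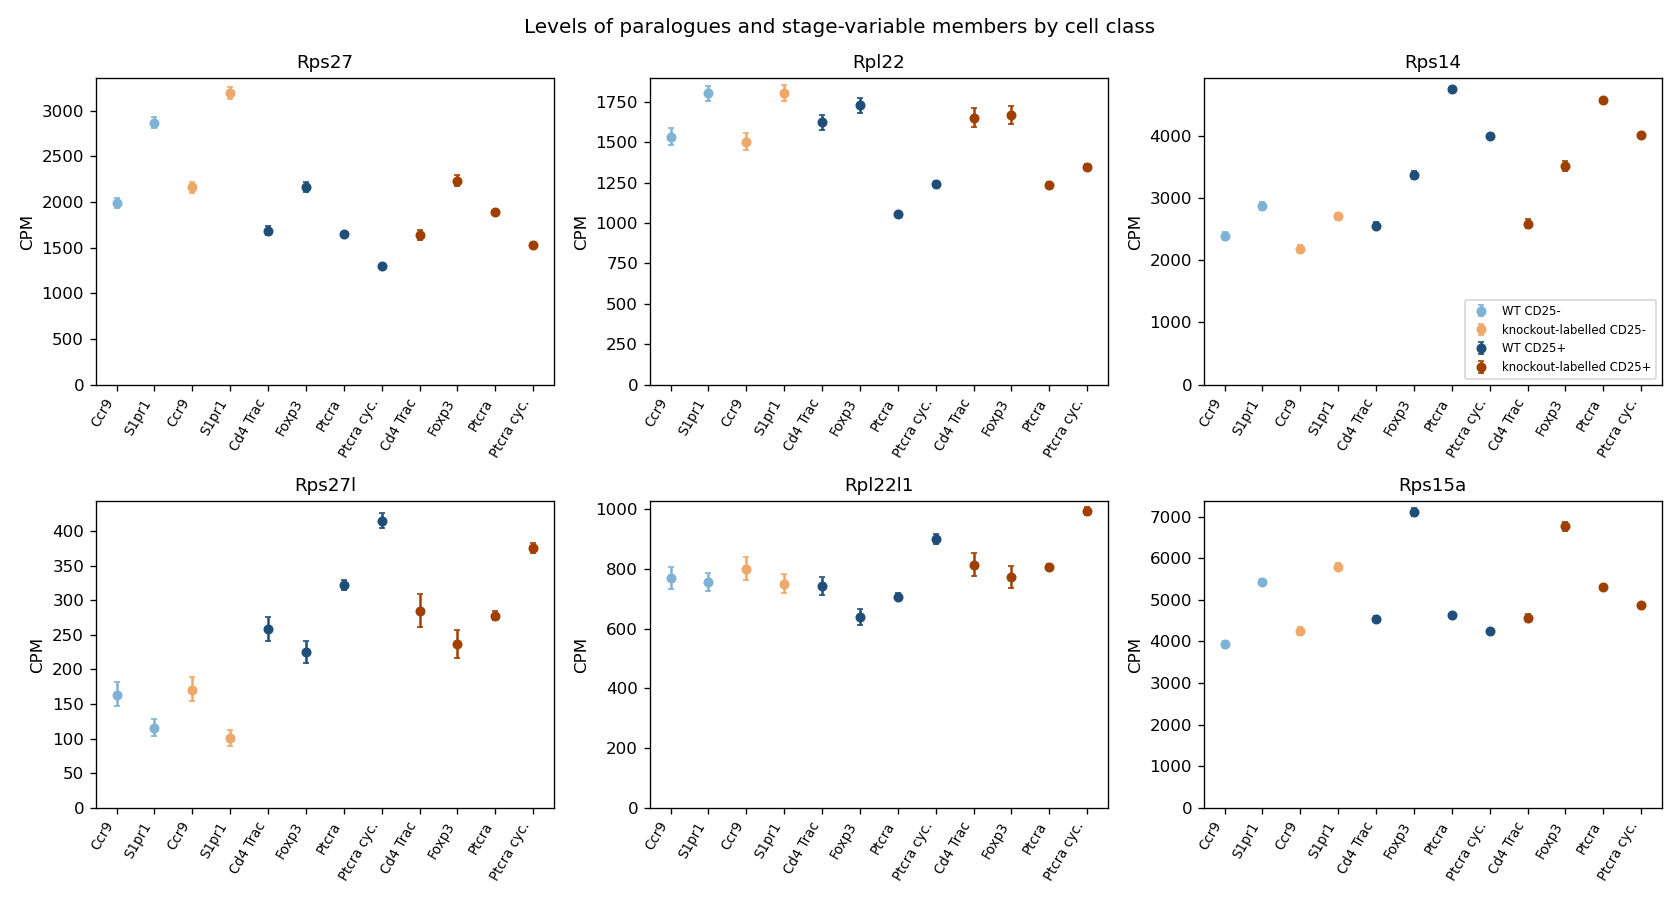
CPM (y axis, from 0) of Rps27, Rps27l, Rpl22, Rpl22l1, Rps14 and Rps15a in 12 combinations of library (colour) and cell class (x axis; Ccr9 and S1pr1 are Cd4 Trac cells of the CD25- gate, Cd4 Trac are those without Foxp3, Ptcra are those not cycling), with exact 95% Poisson intervals. Rps27l is highest in cycling Ptcra cells (415 and 376 CPM), where Rps27 is lowest, Rpl22 is lowest in Ptcra cells, and Rps15a is highest in Foxp3 cells.

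Apart from Rpl7l1, whose levels are given above, the other paralogues were scarce or steady. Rpl3l, known from striated muscle, had 83 UMIs in WT Ptcra cells (2.37 CPM) and 138 in knockout-labelled ones (2.81 CPM), and 0 UMIs in the Cd4 Trac cells of all 4 libraries. With the 0 counts set at a floor of 3 UMIs, CD25+ Cd4 Trac cells stood at 0.767 CPM in WT and 1.22 CPM in the knockout-labelled library. Against that floor Rpl3l was 3.09-fold and 2.29-fold higher in Ptcra cells. The floor is a chosen setting and not a counting interval, so these folds are not lower bounds. Its level was 1.04 CPM in cycling against 3.20 CPM in other WT Ptcra cells (log2 ratio -1.62, -2.57 to -0.78) and 1.59 against 4.04 CPM in the knockout-labelled library (-1.35, -1.92 to -0.80). Rpl39l, best known from testis, had 28 UMIs in knockout-labelled and 1 in WT CD25- Cd4 Trac cells, and 73 and 22 in knockout-labelled and WT Ptcra cells. Rpl10l, a testis paralogue of Rpl10, had no UMI in any class. Rpl36al, which lies outside the rule, was at 743 CPM in WT CD25- Cd4 Trac cells against 1416 CPM of Rpl36a. Rps4x, the X-linked form of Rps4, had log2 ratios of -0.13 and -0.10 in Ptcra over Cd4 Trac cells.

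Genes that work with the ribosome were read against the members from lists of related genes. Ribosome biogenesis factors, which build ribosomes in the nucleolus, did not follow the members in the S1pr1, Foxp3 and cycling comparisons. In S1pr1 over Ccr9 cells their median log2 ratio was -0.37 in WT and -0.43 in the knockout-labelled one, where members stood at 0.24 and 0.26, and 13 of 18 were at least 1.2-fold lower in each library, against 34.4% and 39.6% of all genes. In Foxp3 cells the medians were -0.60 and -0.72, and all 18 (WT) and all 19 (knockout-labelled) genes compared were at least 1.2-fold lower, against 30.5% and 33% of all genes. In cycling Ptcra cells the medians were 0.73 and 0.50, with 17 of 19 and 13 of 18 at least 1.2-fold higher, against 22.5% and 19.7% of all genes. In the CD25+ gate over the CD25- gate they were 0.35 and 0.62. Ncl, the nucleolar protein nucleolin, was at 498 against 809 CPM in WT Foxp3 cells and at 1099 against 543 CPM in WT cycling cells.

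Mitochondrial ribosomal protein genes, which serve a separate ribosome, had medians of the same sign as the biogenesis genes in the comparisons given here. Their median log2 ratio over 77 or 78 genes was -0.40 and -0.27 in Foxp3 cells, -0.20 and -0.19 in S1pr1 cells, 0.29 and 0.14 in cycling cells and 0.27 and 0.42 in the CD25+ gate. In Foxp3 cells 57 of 78 and 42 of 77 were at least 1.2-fold lower, against 30.5% and 33% of all genes. In cycling cells 41 and 27 of 78 were at least 1.2-fold higher, against 22.5% and 19.7%. In S1pr1 cells 28 of 78 and 29 of 77 were at least 1.2-fold lower, near the 34.4% and 39.6% of all genes. Medians over all genes in S1pr1 cells were -0.13 and -0.17, close to those of the mitochondrial list. The 19 other TOP genes of translation were mixed. Fau, whose product is a fusion with a small-subunit protein, followed the members in S1pr1 cells with log2 ratios of 0.45 and 0.53. Eef1a1, the elongation factor that brings tRNA, was lower in Ptcra cells (-0.52 and -0.38), as was Pabpc1, the poly(A)-binding protein (-0.71 and -0.72). Rack1, a scaffold on the small subunit, stayed between -0.03 and 0.14 in the 14 comparisons. Nap1l1, a histone chaperone of the TOP class, was at 556 against 229 CPM in WT cycling cells.

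**Figure D5:**
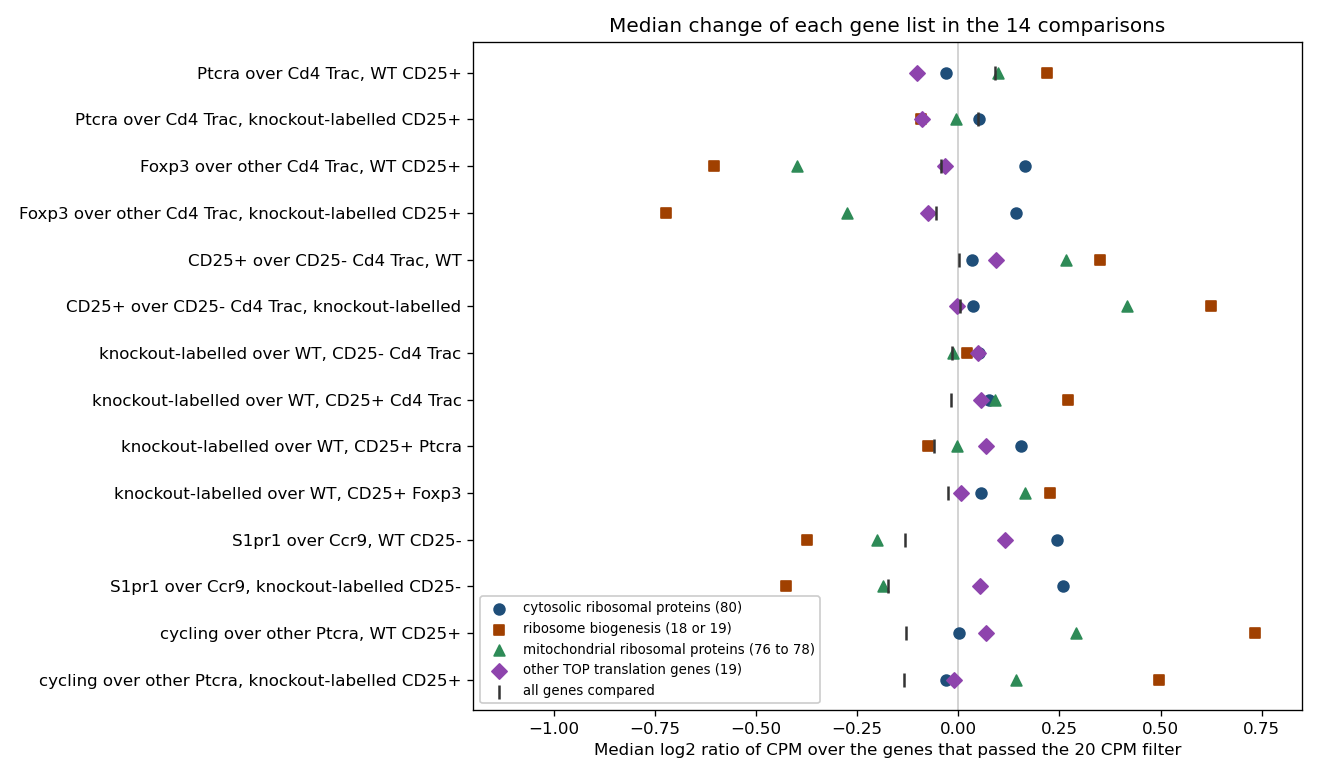
Median log2 ratio of CPM (x axis) over the 80 members, the ribosome biogenesis list, the mitochondrial ribosomal proteins, the other TOP genes and all genes compared (vertical bar), for the 14 comparisons (y axis). In Foxp3 and S1pr1 cells the members lie above 0 (0.14 to 0.26) and the biogenesis genes below (-0.72 to -0.37); in cycling Ptcra cells the order is reversed.

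Among regulators, Myc was at 300 CPM in WT Ptcra cells against 97.4 CPM in Cd4 Trac cells (log2 ratio 1.62) and at 278 against 104 CPM in the knockout-labelled library (1.42). Mycn, its relative, was at 24.7 CPM in WT and 21.5 CPM in knockout-labelled Ptcra cells, with 2 UMIs in the Cd4 Trac cells of each CD25+ library. Of the p53 list, Cdkn1a, an inhibitor of the cell cycle, was at 178 against 2.56 CPM (6246 and 10 UMIs) in WT Ptcra cells and at 108 against 8.17 CPM in the knockout-labelled library, whereas Ccng1 had log2 ratios of -0.72 and -1.35. The p53 list as a whole had a median of 0.20 in WT, with 4 of 8 genes at least 1.2-fold higher and 2 lower, near the 37.5% and 26.3% of all genes, and of 0.16 in the knockout-labelled library, with 3 higher and 3 lower, against 34.1% and 27.6%. The list of ribosome quality and surveillance genes had medians of 0.36 and 0.08 over 5 genes in the same comparison.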

How the data were processed

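The authors deposited raw UMI counts per gene and cell barcode for 4 libraries, per the file headers; the reads were processed with Cell Ranger, version 6.2.1 per the submitters' processing notes and 6.1.2 per the file headers, against mm10. How reads that map to several genes were handled is not stated in the labels or headers, so members with near-identical pseudogenes are uncertain. Barcodes with at least 500 genes and under 10% mitochondrial UMIs were kept, and doublets were removed with the Scrublet method in scanpy 1.11.5 at a rate of 0.8% per 1000 cells (51 to 874 barcodes). Median depth was 4497 to 6299 UMIs. UMIs were summed over cells, divided by the total as CPM (scaled to a total of 1000000), and compared as log2 ratios with no pseudocount among genes at 20 CPM or more in either class. Intervals at 95% are exact Poisson or binomial (Clopper-Pearson) and cover counting error only; UMIs of 1 library are not replicates, so no test was made. Named members were those with paralogues, the stalk proteins, Rpsa and Rps6, and the 5 highest and 5 lowest per comparison with at least 100 UMIs. Members and lists were chosen with earlier results of these data known. Scripts were tested on simulated data, and 10 alternatives were tried. Python 3.11.15, scipy 1.17.1, numpy 2.4.6 and pandas 2.3.3 were used. Starts came from RefSeq and positions from the GENCODE annotation. Values of some genes are not reported here.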

Additional observations from a re-analysis of the deposited data

How the results depend on the processing

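With 1 library per group, a value counts as moved when it leaves an interval that covers counting error only, so small shifts are listed. No paired analysis was possible because the labels give no replicate numbers and each group is 1 library. The differences between Ccr9 and S1pr1 cells, between Foxp3 and other Cd4 Trac cells and between knockout-labelled and WT libraries kept their direction under the 7 alternatives that change the cells, the classes or the total, whereas the gate and cycling differences and the WT difference of Ptcra cells did not. The cause of each change was not tested. Classes were called again in the thinned counts, so thinning changed the cells as well as their depth. It left few cells in some classes, 25 and 33 in the knockout-labelled S1pr1 and Ccr9 classes, which limits those values. In the setting called classes at 2 UMIs, that threshold applied to Cd4, Ptcra and Foxp3. Trac, S1pr1, Ccr9, Mki67 and Top2a stayed at 1 UMI. Shares of all genes past the fold were computed for the main setting only.

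With doublets kept, the members' share of UMIs was 20.1% in WT CD25-, 22.1% in WT CD25+ and 24.3% in knockout-labelled CD25+. The share differences in percentage points became 0.879 for Ptcra over Cd4 Trac in knockout-labelled CD25+, 2.40 for Foxp3 over other Cd4 Trac in WT CD25+, 1.96 for Foxp3 over other Cd4 Trac in knockout-labelled CD25+, 0.572 for CD25+ over CD25- Cd4 Trac in knockout-labelled and 1.61 for knockout-labelled over WT in CD25+ Cd4 Trac. The others became 1.24 for knockout-labelled over WT in CD25+ Foxp3, 3.58 for S1pr1 over Ccr9 in WT CD25-, 4.03 for S1pr1 over Ccr9 in knockout-labelled CD25-, -0.223 for cycling over other Ptcra in WT CD25+ and -0.707 for cycling over other Ptcra in knockout-labelled CD25+. The number of members past the fold was 0 for Ptcra over Cd4 Trac in knockout-labelled CD25+.

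With at least 1000 genes and under 5% mitochondrial UMIs per cell, the members' share of UMIs was 22.2% in WT CD25-, 22.5% in WT CD25+, 23.2% in knockout-labelled CD25- and 24.8% in knockout-labelled CD25+. The share differences in percentage points became 0.297 for Ptcra over Cd4 Trac in WT CD25+, 1.48 for Ptcra over Cd4 Trac in knockout-labelled CD25+, 3.02 for Foxp3 over other Cd4 Trac in WT CD25+, 2.99 for Foxp3 over other Cd4 Trac in knockout-labelled CD25+ and -0.550 for CD25+ over CD25- Cd4 Trac in WT. The others became 0.112 for CD25+ over CD25- Cd4 Trac in knockout-labelled, 0.736 for knockout-labelled over WT in CD25- Cd4 Trac, 2.58 for knockout-labelled over WT in CD25+ Ptcra, 1.23 for knockout-labelled over WT in CD25+ Foxp3 and 3.82 for S1pr1 over Ccr9 in WT CD25-. The others became 3.85 for S1pr1 over Ccr9 in knockout-labelled CD25-, -0.538 for cycling over other Ptcra in WT CD25+ and -1.18 for cycling over other Ptcra in knockout-labelled CD25+. The number of members past the fold was 1 for Foxp3 over other Cd4 Trac in knockout-labelled CD25+.

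With all deposited barcodes, the members' share of UMIs was 18.2% in WT CD25-, 21.9% in WT CD25+, 19.8% in knockout-labelled CD25- and 24.0% in knockout-labelled CD25+. The share differences in percentage points became 0.752 for Ptcra over Cd4 Trac in knockout-labelled CD25+, 2.33 for Foxp3 over other Cd4 Trac in WT CD25+, 1.91 for Foxp3 over other Cd4 Trac in knockout-labelled CD25+, 0.0389 for CD25+ over CD25- Cd4 Trac in WT and 0.741 for CD25+ over CD25- Cd4 Trac in knockout-labelled. The others became 0.912 for knockout-labelled over WT in CD25- Cd4 Trac, 1.61 for knockout-labelled over WT in CD25+ Cd4 Trac, 2.41 for knockout-labelled over WT in CD25+ Ptcra, 1.27 for knockout-labelled over WT in CD25+ Foxp3 and 3.55 for S1pr1 over Ccr9 in WT CD25-. The others became -0.557 for cycling over other Ptcra in knockout-labelled CD25+. The number of members past the fold was 0 for Ptcra over Cd4 Trac in knockout-labelled CD25+.

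With cells weighted equally, the members' share of UMIs was 14.9% in WT CD25-, 20.9% in WT CD25+, 19.3% in knockout-labelled CD25- and 23.0% in knockout-labelled CD25+. The share differences in percentage points became -1.02 for Ptcra over Cd4 Trac in WT CD25+, 0.463 for Ptcra over Cd4 Trac in knockout-labelled CD25+, 1.83 for Foxp3 over other Cd4 Trac in WT CD25+, 1.76 for Foxp3 over other Cd4 Trac in knockout-labelled CD25+ and 1.42 for CD25+ over CD25- Cd4 Trac in WT. The others became 0.539 for CD25+ over CD25- Cd4 Trac in knockout-labelled, 1.98 for knockout-labelled over WT in CD25- Cd4 Trac, 1.09 for knockout-labelled over WT in CD25+ Cd4 Trac, 2.58 for knockout-labelled over WT in CD25+ Ptcra and 0.680 for knockout-labelled over WT in CD25+ Foxp3. The others became 4.06 for S1pr1 over Ccr9 in WT CD25-, 4.86 for S1pr1 over Ccr9 in knockout-labelled CD25-, 0.655 for cycling over other Ptcra in WT CD25+ and 0.217 for cycling over other Ptcra in knockout-labelled CD25+. The number of members past the fold was 5 for Ptcra over Cd4 Trac in WT CD25+, 1 for Foxp3 over other Cd4 Trac in knockout-labelled CD25+, 1 for CD25+ over CD25- Cd4 Trac in knockout-labelled and 4 for S1pr1 over Ccr9 in knockout-labelled CD25-.

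With cells thinned to 1500 UMIs, the members' share of UMIs was 17.5% in WT CD25-, 21.1% in WT CD25+, 20.2% in knockout-labelled CD25- and 23.3% in knockout-labelled CD25+. The share differences in percentage points became -0.856 for Ptcra over Cd4 Trac in WT CD25+, 0.814 for Ptcra over Cd4 Trac in knockout-labelled CD25+, 2.40 for Foxp3 over other Cd4 Trac in WT CD25+, 1.68 for Foxp3 over other Cd4 Trac in knockout-labelled CD25+ and 3.53 for CD25+ over CD25- Cd4 Trac in WT. The others became 2.32 for CD25+ over CD25- Cd4 Trac in knockout-labelled, 2.09 for knockout-labelled over WT in CD25- Cd4 Trac, 0.886 for knockout-labelled over WT in CD25+ Cd4 Trac, 2.56 for knockout-labelled over WT in CD25+ Ptcra and 0.721 for knockout-labelled over WT in CD25+ Foxp3. The others became 1.198 for S1pr1 over Ccr9 in WT CD25-, 5.06 for S1pr1 over Ccr9 in knockout-labelled CD25-, -0.808 for cycling over other Ptcra in WT CD25+ and -1.11 for cycling over other Ptcra in knockout-labelled CD25+. The number of members past the fold was 4 for Ptcra over Cd4 Trac in WT CD25+, 3 for Ptcra over Cd4 Trac in knockout-labelled CD25+, 3 for knockout-labelled over WT in CD25+ Cd4 Trac, 5 for S1pr1 over Ccr9 in WT CD25- and 21 for S1pr1 over Ccr9 in knockout-labelled CD25-. It was 1 for cycling over other Ptcra in WT CD25+. Log2 ratios that changed sign were Rpl7l1 0.415 for Foxp3 over other Cd4 Trac in knockout-labelled CD25+, Rps27 0.0744 for CD25+ over CD25- Cd4 Trac in WT, Rps29 0.0495 for CD25+ over CD25- Cd4 Trac in WT, Rpl39 0.0172 for CD25+ over CD25- Cd4 Trac in knockout-labelled, Rps27 0.0804 for CD25+ over CD25- Cd4 Trac in knockout-labelled, Rpl41 0.0261 for S1pr1 over Ccr9 in knockout-labelled CD25- and Rps27l -0.0649 for cycling over other Ptcra in WT CD25+.

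With mitochondrial, Gm42418 and receptor segment UMIs out of the total, the members' share of UMIs was 21.3% in WT CD25-, 23.0% in WT CD25+, 23.2% in knockout-labelled CD25- and 25.2% in knockout-labelled CD25+. The share differences in percentage points became 0.230 for Ptcra over Cd4 Trac in WT CD25+, 1.41 for Ptcra over Cd4 Trac in knockout-labelled CD25+, 2.94 for Foxp3 over other Cd4 Trac in WT CD25+, 2.84 for Foxp3 over other Cd4 Trac in knockout-labelled CD25+ and -0.617 for CD25+ over CD25- Cd4 Trac in WT. The others became -0.0200 for CD25+ over CD25- Cd4 Trac in knockout-labelled, 0.776 for knockout-labelled over WT in CD25- Cd4 Trac, 2.56 for knockout-labelled over WT in CD25+ Ptcra, 4.06 for S1pr1 over Ccr9 in WT CD25- and 4.28 for S1pr1 over Ccr9 in knockout-labelled CD25-. The others became -0.453 for cycling over other Ptcra in WT CD25+ and -1.04 for cycling over other Ptcra in knockout-labelled CD25+.

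With classes at 2 UMIs, the share differences were 0.388 for Ptcra over Cd4 Trac in WT CD25+, 1.01 for Ptcra over Cd4 Trac in knockout-labelled CD25+, 3.80 for Foxp3 over other Cd4 Trac in WT CD25+, 3.34 for Foxp3 over other Cd4 Trac in knockout-labelled CD25+ and -0.360 for CD25+ over CD25- Cd4 Trac in WT. The others became 0.570 for CD25+ over CD25- Cd4 Trac in knockout-labelled, 0.871 for knockout-labelled over WT in CD25- Cd4 Trac, 1.80 for knockout-labelled over WT in CD25+ Cd4 Trac, 2.43 for knockout-labelled over WT in CD25+ Ptcra and 1.34 for knockout-labelled over WT in CD25+ Foxp3. The others became 4.14 for S1pr1 over Ccr9 in WT CD25-, 3.94 for S1pr1 over Ccr9 in knockout-labelled CD25-, -0.332 for cycling over other Ptcra in WT CD25+ and -0.857 for cycling over other Ptcra in knockout-labelled CD25+. The number of members past the fold was 2 for Ptcra over Cd4 Trac in knockout-labelled CD25+, 2 for Foxp3 over other Cd4 Trac in WT CD25+ and 4 for Foxp3 over other Cd4 Trac in knockout-labelled CD25+.

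With ratios taken among ribosomal protein UMIs, the number of members past the fold was 2 for Foxp3 over other Cd4 Trac in knockout-labelled CD25+, 2 for S1pr1 over Ccr9 in WT CD25- and 3 for S1pr1 over Ccr9 in knockout-labelled CD25-.

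Without the filter on low values, the number of members past the fold was 3 for Ptcra over Cd4 Trac in WT CD25+, 3 for Ptcra over Cd4 Trac in knockout-labelled CD25+, 2 for Foxp3 over other Cd4 Trac in WT CD25+, 1 for Foxp3 over other Cd4 Trac in knockout-labelled CD25+ and 2 for CD25+ over CD25- Cd4 Trac in WT. It was 1 for knockout-labelled over WT in CD25- Cd4 Trac, 1 for knockout-labelled over WT in CD25+ Cd4 Trac, 1 for knockout-labelled over WT in CD25+ Ptcra, 1 for knockout-labelled over WT in CD25+ Foxp3 and 2 for S1pr1 over Ccr9 in knockout-labelled CD25-. It was 2 for cycling over other Ptcra in WT CD25+ and 2 for cycling over other Ptcra in knockout-labelled CD25+.

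At 1.2-fold in place of 1.5-fold, the number of members past the fold was 14 for Ptcra over Cd4 Trac in WT CD25+, 17 for Ptcra over Cd4 Trac in knockout-labelled CD25+, 23 for Foxp3 over other Cd4 Trac in WT CD25+, 24 for Foxp3 over other Cd4 Trac in knockout-labelled CD25+ and 9 for CD25+ over CD25- Cd4 Trac in WT. It was 14 for CD25+ over CD25- Cd4 Trac in knockout-labelled, 5 for knockout-labelled over WT in CD25- Cd4 Trac, 6 for knockout-labelled over WT in CD25+ Cd4 Trac, 11 for knockout-labelled over WT in CD25+ Ptcra and 6 for knockout-labelled over WT in CD25+ Foxp3. It was 37 for S1pr1 over Ccr9 in WT CD25-, 42 for S1pr1 over Ccr9 in knockout-labelled CD25-, 13 for cycling over other Ptcra in WT CD25+ and 8 for cycling over other Ptcra in knockout-labelled CD25+. Shares of all genes at 1.2-fold are given above for the Ptcra, Foxp3, S1pr1 and cycling comparisons. They were not computed for the gate or the knockout-labelled over WT comparisons, so those counts cannot be set against all genes.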
